A study of Caenorhabditis elegans with 3 samples.

Results

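The genes of cuticlins and of zona pellucida (ZP) domain proteins of the nematode Caenorhabditis elegans were described on 3 expression arrays of whole young adult worms. The 39 genes were chosen by a rule on names, with earlier results of these data known. The rule took all genes whose single symbol in the platform annotation began with cut- (6 genes) or cutl- (28 genes). It added noah-1, noah-2, fbn-1, dyf-7 and let-653. The chosen genes were 39 of the 17118 genes measured by probe sets with a single gene. Wild-type hermaphrodites, 3 days old and grown on bacterial plates from synchronised eggs, were held for 24 h at 20 °C in a potassium and sodium chloride medium without food. All 3 groups shared that fast. The control worms had no further treatment named, while the 2 other sets received GO or rGO, and total RNA of each set went to 1 Affymetrix array. The labels give only these abbreviations; the study is known to concern graphene oxide and reduced graphene oxide. Neither the exposure concentration nor the number of worms per array is stated in the sources used here.

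The cuticle of C. elegans is an extracellular matrix that the epidermis and seam cells lay down anew at each molt. Collagens form most of it, and cuticlins belong to the part that stays insoluble after reducing agents. The ZP domain, named after the coat of the vertebrate egg, lets secreted or membrane-tethered proteins assemble into filaments or sheets. In the worm, ZP proteins build the alae, ridges along the sides of some stages, and the precuticle, a transient matrix that shapes the epidermis, ducts and sense organs before and during the making of a cuticle.

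With 1 array per group there was no spread between replicates, so no test was possible and no p-value is given. Levels are the deposited log2 values, averaged over the probe sets of a gene, and a difference of 1 is 2-fold. Genes at least 2-fold apart were counted, which is a rule of size. A floor of 6.79, the median of all gene values, marked dim genes, and 6.24, the highest of 8 control probe sets with no expected target, was taken as the background limit. Where the dimmer array was under that limit, a fold is given as "at least" and computed against it.

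The arrays had medians of 6.87 (control), 6.92 (GO) and 6.86 (rGO). All 24 probe sets for added poly-A transcripts were lower than on the control array, with median differences of -1.55 for GO and -0.98 for rGO. All 18 probe sets for hybridisation controls were lower too, by -0.62 for GO and -0.93 for rGO. The median gap between 3′ and 5′ ends of 8 worm control pairs was 1.88 for control, 2.57 for GO and 1.16 for rGO. For 8 pairs of the added poly-A transcripts the gap was 1.36 for control, 2.14 for GO and 1.56 for rGO. Of 12 adult hermaphrodite markers, 11 lay between 10.13 and 14.66 on all arrays, so these 11 markers of the labelled stage were present. The exception was the adult cuticle collagen col-19, at 12.17 in control, 7.97 in GO and 11.26 in rGO worms. It was 18.4-fold lower in GO than in control worms. Of the other 11, the collagen gene col-119 differed most, at 13.87 in control, 12.97 in GO and 13.74 in rGO worms. It was 1.86-fold lower in GO than in control worms. Of the 12 markers, 9 were above 0 for GO minus control and 3 below.

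Many cuticlin and ZP domain genes had higher levels in GO than in control worms, and none was at least 2-fold lower. By the deposited values, 18 of the 39 genes were at least 2-fold higher (46.2%), against 5.25% of all 17118 genes. At least 2-fold lower were 0 of 39, against 6.27% of all genes. With levels under the background limit raised to it, 11 of the 39 remained at least 2-fold higher (28.2%), against 4.1% of all genes, and 0 were lower, against 4.71%. The other 7 of the 18 (cut-6, cutl-2, cutl-9, cutl-11, cutl-25, cutl-29 and fbn-1) have no lower bound of 2-fold. The median deposited difference over the 39 genes was 0.64 (0.24 with the raised levels), and over all genes it was 0.00 either way. Above 0 were 34 of the 39, 1 was below 0 and 4 were equal on both arrays. In bulk worm RNA, a change in the number of cells of a type and a change in RNA per cell cannot be told apart. The wider 3′ to 5′ gap and the lower col-19 and col-119 levels moved with these values on the GO array. Their part in the result was not tested.

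The floor bore on these counts, because many of the genes were dim. On the brighter of the GO and control arrays 20 of 39 genes reached it. Of these 20, 13 were at least 2-fold higher, beside 8.43% of all genes that entered, and 0 were at least 2-fold lower, beside 9.76%. The number at or above the floor was 10 in control and 19 in GO worms, so part of the 20 entered through the array where they were high, and that share is a description only. With the floor applied to the mean of the 3 arrays, 8 of 12 genes were at least 2-fold higher, beside 7.2% of all genes, and 0 lower, beside 7.69%. That mean includes the GO array. Among the 8, cut-3, cutl-14 and cutl-28 were under the floor in control worms, so this share is also a description only.

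**Figure D1:**
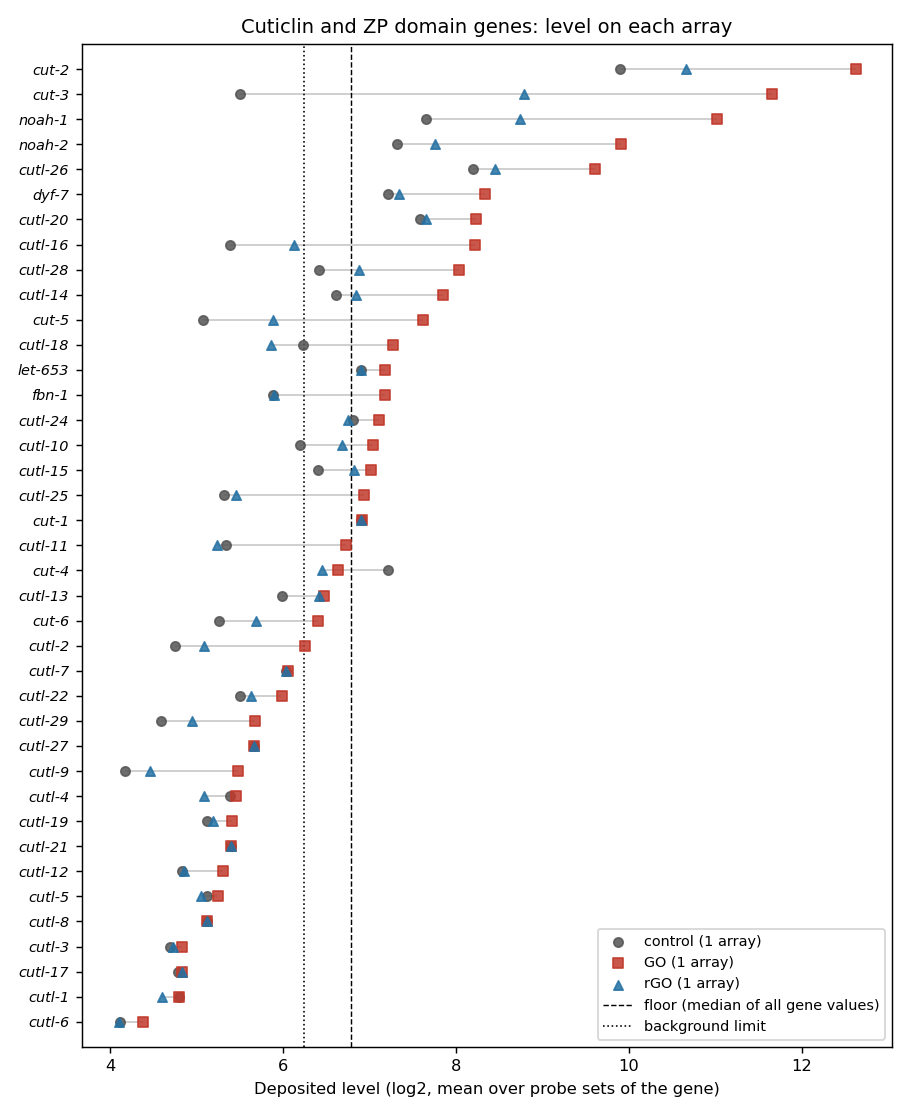
Deposited log2 level of each of the 39 cuticlin and ZP domain genes on the control (circle), GO (square) and rGO (triangle) array, 1 array each, with genes ordered by their GO level. The dashed line is the floor of 6.79 and the dotted line the background limit of 6.24; cut-2, cut-3, noah-1 and noah-2 are the 4 brightest on the GO array, and cut-4 has its highest level on the control array.

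The cut- genes include those known for the alae of larvae. cut-3, which is needed for the alae of the first larval stage, was at 5.50 in control, 11.65 in GO and 8.79 in rGO worms. It was under the background limit on the control array and among the brightest genes of the GO array, at percentile 97.5 of all genes. Its difference of 6.15 (GO minus control) was at least 42.6-fold and ranked 2 of the 9303 genes that entered. cut-5, needed for alae in the first larval stage and in dauer larvae, was at 5.08 in control, 7.62 in GO and 5.88 in rGO worms. Only the GO array was above the background limit for this gene, and the fold was at least 2.60.

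cut-2 encodes a cuticlin of short repeated motifs that can be crosslinked through tyrosines. It was at 9.89 in control, 12.62 in GO and 10.67 in rGO worms, bright on all 3. The GO array was 6.64-fold above the control array (2.73). The neighbouring ZP gene cutl-1, with 3 protein-coding genes between them in the RefSeq annotation, was under the background limit on every array, with a difference of 0.00.

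The remaining cut- genes differed less or were dim. cut-1, known for the alae of dauer larvae, was at 6.90, 6.91 and 6.90 on the control, GO and rGO arrays, about the median of all genes. cut-4 was at 7.21 in control, 6.64 in GO and 6.45 in rGO worms, and was the 1 gene of the 39 that was lower on the GO array, at -0.58. cut-6, a cuticlin known from dauer larvae, was at 5.26, 6.41 and 5.68, under the floor throughout and above the background limit on the GO array alone, so its fold was at least 1.12. Of the 6 cut- genes, cut-2, cut-3 and cut-5 were thus at least 2-fold higher on the GO array against the background limit as well.

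The precuticle proteins NOAH-1 and NOAH-2, which form part of the sheath around the elongating embryo and are needed at molts, had higher levels in GO than in control worms with all 3 arrays above the floor. noah-1 was at 7.65 in control, 11.02 in GO and 8.74 in rGO worms, so that GO was 10.3-fold above control (3.37). noah-2 was at 7.32, 9.91 and 7.76, and GO was 6.04-fold above control (2.59). For both genes the GO array stood apart and the rGO array was between the other 2.

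The 3 other named ZP genes differed by less. fbn-1, which encodes a fibrillin-related protein of the epidermal matrix, was at 5.89 in control, 7.17 in GO and 5.90 in rGO worms. GO was at least 1.91-fold above control, with a deposited difference of 1.29. dyf-7, whose protein anchors the dendrite tips of sensory neurons in the embryo, was at 7.21, 8.34 and 7.35, a difference of 1.13 for GO minus control. let-653, whose protein lines the excretory duct and the developing vulva, was at 6.90, 7.18 and 6.90, a difference of 0.28. Its nearest protein-coding neighbour cutl-27 was equal on all 3 arrays, at 5.66.

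Among the 28 cutl- genes (cuticlin-like), 10 were at least 2-fold higher on the GO array by the deposited values, against 5.25% of all genes, and 0 were at least 2-fold lower, against 6.27%. Against the background limit 5 of the 28 were at least 2-fold higher (17.9%), beside 4.1% of all genes, and these were cutl-14, cutl-16, cutl-18, cutl-26 and cutl-28. No role is given here for single cutl- genes. cutl-16 differed most, at 5.39 in control, 8.22 in GO and 6.13 in rGO worms. Only its GO level passed the background limit, so the fold was at least 3.95. cutl-25 was at 5.31, 6.93 and 5.45, a similar pattern nearer to the limit, and its fold was at least 1.62.

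cutl-26 and cutl-28 have 1 protein-coding gene between them in the RefSeq annotation. cutl-26 was at 8.19 in control, 9.61 in GO and 8.45 in rGO worms. cutl-28 was at 6.41, 8.03 and 6.88. Both were highest on the GO array, by 1.41 and 1.62 over the control array. cutl-14 was at 6.61, 7.85 and 6.84, a difference of 1.24 for GO minus control. cutl-18 was at 6.23 in control, 7.27 in GO and 5.85 in rGO worms, and its GO minus control difference of 1.03 was the one nearest to the size rule. Just short of that rule was cutl-10, at 6.19, 7.03 and 6.68, with 0.84. The other 3 cutl- genes that reached the floor, cutl-15, cutl-20 and cutl-24, differed by 0.62, 0.64 and 0.30.

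Under the floor on all 3 arrays were 19 of the 39 genes, with levels from 4.10 to 6.73. Their deposited GO minus control differences ran from 0.00 to 1.51, with a median of 0.26. Of the 19, 5 had a deposited difference of at least 1, and all 5 were under the background limit on the control array. The lower bounds were 1.40-fold for cutl-11, 1.12-fold for cut-6 and 1.01-fold for cutl-2. As means over probe sets, 15 genes were at or under the background limit on every array, so no fold is given for them. cutl-9 and cutl-29 are among these 15, although 1 probe set of each was above the limit on the GO array. cutl-8, cutl-21 and cutl-27 had the same value on all 3 arrays, and ties were common: 19.3% of all genes had equal GO and control values.

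**Figure D2:**
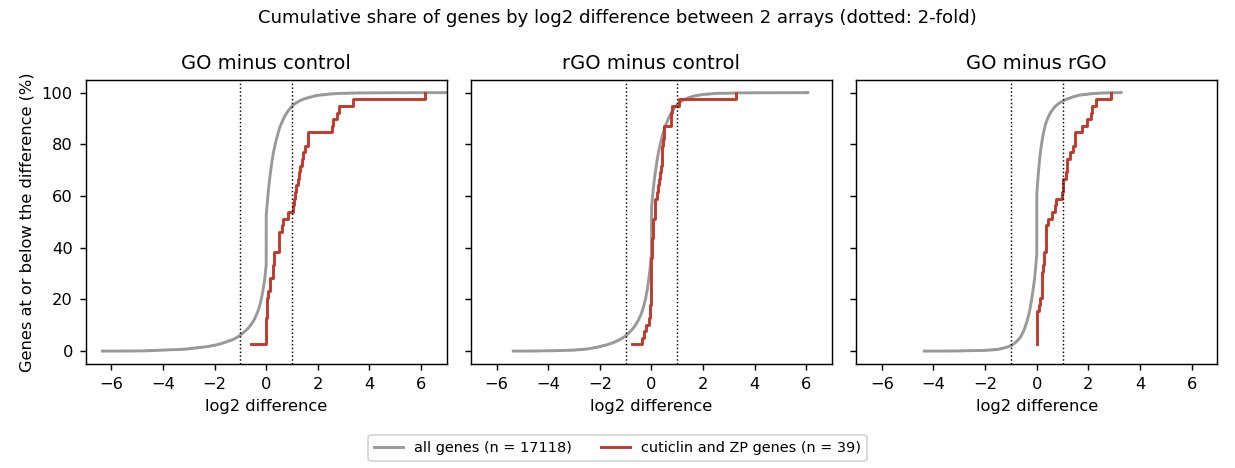
Cumulative share of genes (%, vertical axis) at or below a given log2 difference (horizontal axis) for the 39 cuticlin and ZP domain genes (red) and all 17118 genes (grey), in each of the 3 comparisons; dotted lines mark 2-fold. The red line lies to the right of the grey one for GO minus control and GO minus rGO (medians of 0.64 and 0.45), and near it for rGO minus control (median 0.07).

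Against the control array, the rGO array showed few such differences. Of the 39 genes, 2 were at least 2-fold higher (5.13%), which is near the 4.63% of all genes, and 0 were at least 2-fold lower, against 5.95% of all genes. The median over the 39 genes was 0.07, and 25 were above 0, 8 below and 6 equal. Of 14 genes that reached the floor on the brighter array, the same count of 2 was higher, beside 7.99% of all genes, and 0 lower, beside 9.88%. With the floor on the mean of the 3 arrays the counts were 2 and 0 of 12 genes, beside 7.58% and 7.72% of all genes. The 2 genes were cut-3, at least 5.85-fold (3.29), and noah-1, 2.12-fold (1.08). With levels under the background limit raised to it, the same 2 were higher, beside 4.01% of all genes, and 0 lower, beside 4.72%. cut-2 differed by 0.77 and noah-2 by 0.44. cut-4 was lower, at -0.76. cut-5, cutl-16 and cutl-18 were under the background limit on both the control and the rGO array, so their differences there are not resolved.

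The GO and rGO arrays were also compared directly. Since this comparison shares its GO array with the first, the counts are not separate evidence. Of the 39 genes, 15 were at least 2-fold higher with GO than with rGO (38.5%), against 3.35% of all genes, and 0 were at least 2-fold lower, against 2.17%. The median difference was 0.45, and 35 genes were above 0, 0 below and 4 equal. Of 19 genes that reached the floor, 12 were at least 2-fold higher, beside 5.59% of all genes, and 0 lower, beside 3.73%. With the floor on the mean they were 7 and 0 of 12, beside 4.26% and 3.44%. With levels under the background limit raised to it, 10 of 39 were higher (25.6%), beside 2.6% of all genes, and 0 lower, beside 1.81%. cut-3 differed by 2.86 (7.28-fold), noah-1 by 2.28 (4.86-fold), noah-2 by 2.15 (4.44-fold) and cut-2 by 1.96 (3.88-fold). cutl-16 was at least 3.95-fold and cut-5 at least 2.60-fold higher, with rGO levels under the background limit for both. dyf-7 was just under the size rule, at 0.99. cut-4, lower than control on both exposed arrays, differed by 0.19 between them.

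Most of these genes were read once: 32 of the 39 had 1 probe set and 7 had several, 48 probe sets in all. By the maker's naming, 10 of the 48 share probes between transcripts, and 6 genes, including cut-2, cut-3, noah-2 and cutl-26, were read only by such probe sets. For noah-1, both probe sets gave nearly the same GO minus control difference, 3.38 and 3.35, although their levels on the control array were 8.80 and 6.51. For fbn-1 the probe sets disagreed: one went from 6.66 in control to 8.87 in GO worms (2.21), and the other, under the background limit on all arrays, from 5.11 to 5.48 (0.37).

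The same held for other genes with several probe sets. For dyf-7 the GO minus control differences were 1.72 and 0.54. For cutl-29 one probe set went from 5.27 in control to 7.43 in GO worms (2.16), while the other stayed near 3.91 on both. For cutl-9 the differences were 2.40 and 0.21. The brightest of 4 probe sets for cutl-20 was at 9.46 in control and 9.39 in GO worms (-0.07), and another, which shares probes, was at 6.47 and 7.78 (1.31). The mean values of cutl-9, cutl-20, cutl-29, dyf-7 and fbn-1 thus hide ranges of 1.18 to 2.19 between probe sets.

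**Figure D3:**
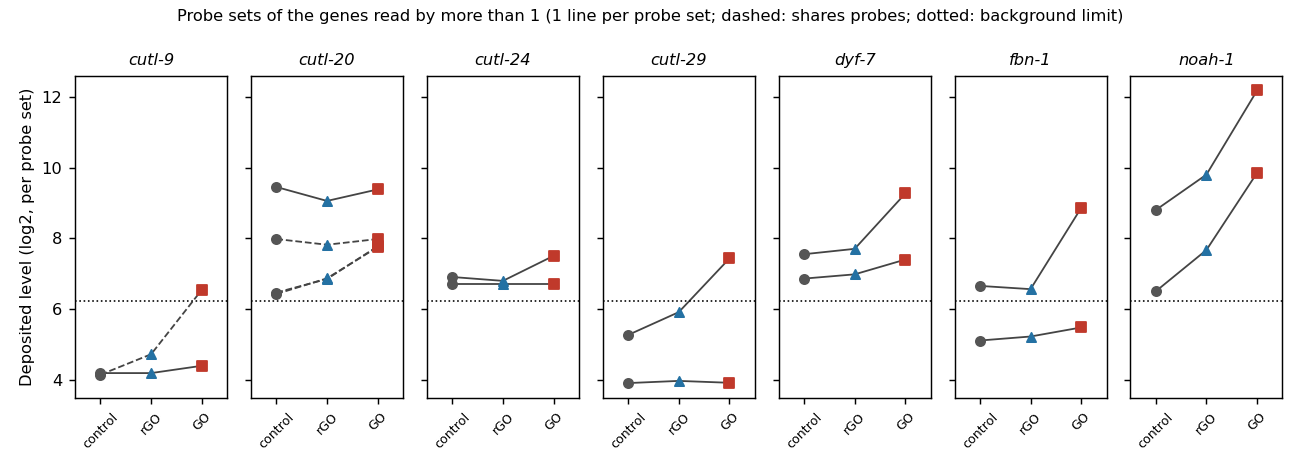
Deposited log2 level on the control, rGO and GO array (horizontal axis, 1 array each) of every probe set of the 7 genes read by more than 1, with 1 line per probe set, dashed where the probe set shares probes by its name. The dotted line is the background limit of 6.24; both noah-1 lines climb in parallel, whereas for fbn-1 and cutl-29 the lower line stays under the limit on all arrays.

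Of 18 genes whose proteins are known from the precuticle or from epidermal attachment, 11 were at least 2-fold higher on the GO array, beside 5.25% of all genes, and 0 lower, beside 6.27% (median 1.35). Among the other 7, egg-6, mup-4 and vab-10 differed by 0.01, 0.06 and 0.16. Of the 11, the lipocalin genes lpr-3 and lpr-5, whose proteins belong to the same transient matrix, were higher by 2.49 and 2.31. mlt-11, a protease inhibitor of molting, was higher by 2.44. dex-1, whose protein acts with DYF-7 in anchoring dendrites, was higher by 2.12 (at least 2.76-fold). On the rGO array, 1 of these 18 was at least 2-fold higher than control (5.56%), near the 4.63% of all genes. Likewise 1 was lower (5.56%), near the 5.95% of all genes. The higher gene was the lipocalin gene lpr-2 (1.62, at least 2.46-fold) and the lower the attachment gene mup-4 (-1.10).

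Genes that secrete, cut and crosslink cuticle proteins had differences on both sides, with more above 0 than below. Of 25, 4 were at least 2-fold higher with GO than in the control (16%), beside 5.25% of all genes. At least 2-fold lower were 2 (8%), beside 6.27%. The median was 0.31, and 18 were above 0 and 6 below. The peroxidase gene skpo-3 (-1.90), the astacin protease gene nas-7 (1.41), skpo-2 (1.18, at least 2.09-fold) and the proprotein convertase gene kpc-1 (1.10) differed most. Of 16 measured epidermal and seam transcription factor genes, 3 were at least 2-fold higher (18.8%), beside 5.25% of all genes. The 1 that was lower (6.25%) is near the 6.27% of all genes. The median was 0.37. nhr-25, a nuclear receptor gene of the epidermis, was higher by 1.58, bed-3, a molting regulator, by 1.48 (at least 2.61-fold) and elt-6, a GATA factor gene of seam cells, by 1.13. lin-29, which drives the larval to adult switch of the epidermis, was lower (-1.05).

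Another list was drawn up for cuticle and epidermis genes of the late embryo and the larva. Its genes are not limited to those stages, and they went both ways on the GO array. Of 13 measured, 7 were at least 2-fold above the control array (53.8%), beside 5.25% of all genes. At least 2-fold below it were 5 (38.5%), beside 6.27%, although the bound for bli-1, one of the 5, was 1.83-fold. All 5 were collagen genes: rol-6, bli-1, bli-2, lon-3 and sqt-1. The other 8 genes of the list were above 0. The collagen genes dpy-14 (5.18) and dpy-17 (4.27) and the hedgehog-related wrt-1 (3.04) were the highest. The collagen gene sqt-1 was the lowest, at -2.61 for GO and -2.70 for rGO, at least 3.09-fold in both. On the rGO array the same 5 collagen genes were at least 2-fold below the control array (38.5%), beside 5.95% of all genes. The bound for bli-1 was again 1.83-fold. At least 2-fold above it were 2 (15.4%), beside 4.63%, namely dpy-14 (2.57) and dpy-17 (1.82). Of 14 measured embryo markers, 7 were at or under the background limit on all arrays, for instance hlh-1 and tbx-37. On the control array 6 were at or above the floor, among them lag-1 (10.22), skn-1 (9.18) and end-1 (7.77). The list's median was 0.02 for GO minus control and -0.04 for rGO minus control. Of the 14, 1 was at least 2-fold higher on the GO array (7.14%), beside 5.25% of all genes, and 0 lower, beside 6.27%. The 1 gene was vet-6, by its deposited difference of 1.39, with a lower bound of 1.90-fold. The part of embryos within the worms in these values was not tested beyond these levels.

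**Figure D4:**
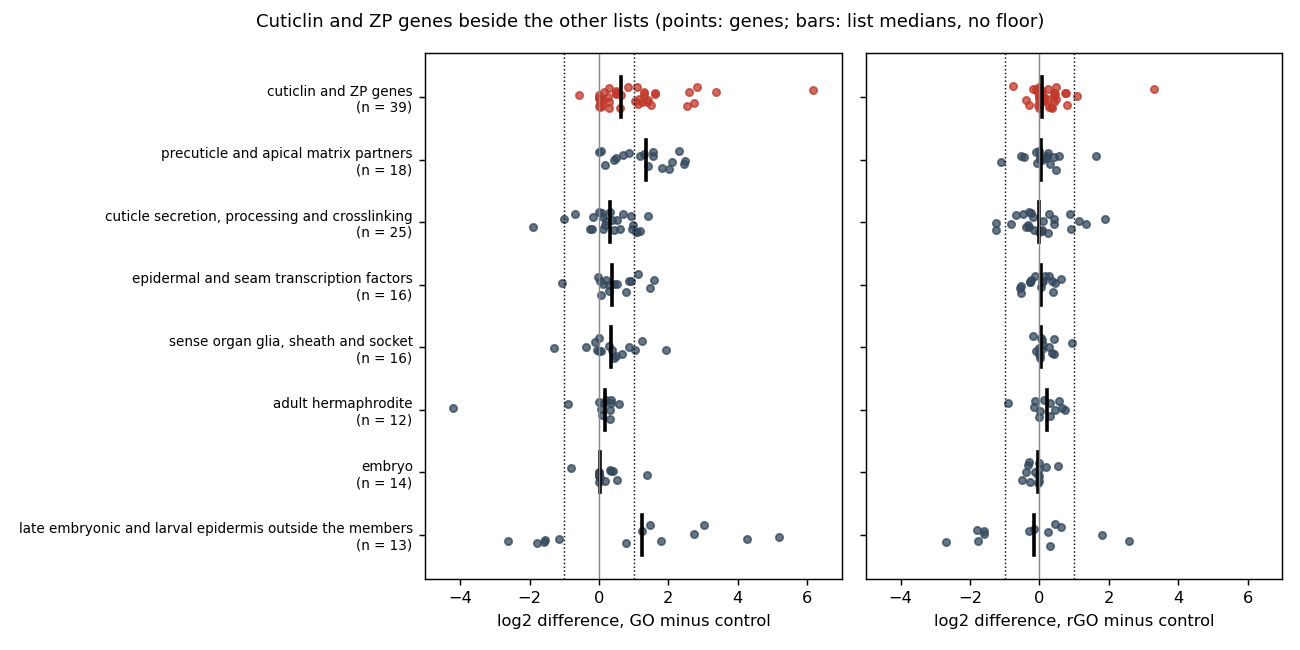
Log2 difference of each gene (point) and list median (bar), GO minus control on the left and rGO minus control on the right, for the 39 cuticlin and ZP domain genes (red) and 7 other lists, without a floor; dotted lines mark 2-fold. On the left the precuticle partners have a median of 1.35 and the embryo markers 0.02; the lone adult marker far to the left is col-19, and on the right the medians lie between -0.15 and 0.21.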

How the data were processed

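The authors deposited 1 log2 value per probe set and array, made with GCOS, Affymetrix Expression Console and RMA per the submitters' processing notes, with no version given. Per the labels' protocols, 300 ng of total RNA was amplified and biotin-labelled. RMA equalises the arrays' distributions and summarises each probe set over the arrays, which gives ties, and a general shift of RNA per worm cannot be seen. Of 22625 probe sets, 20766 carry 1 gene in the platform annotation of 2016; probe sets of a gene were averaged, giving 17118 genes. All 39 symbols matched a RefSeq table (WBcel235), used for names and neighbours only. Sequences were not used here.

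A gene entered a comparison when the brighter array reached 6.79; counts without a floor and with the floor on the 3-array mean are also given. The latter, and raising levels under the background limit to it, were chosen after seeing the data. With 1 array per group no test was made, and the number of arrays limits the precision. Named are the genes of the 39 that reached the floor and differed by at least 1 in any comparison, the better known ones, and up to 4 per other list; dim genes of the 39, cutl-10 and the genes compared by neighbourhood or probe set were named after their values were seen. The genes and lists were chosen with earlier results of these data known. Counting was tested on simulated data. Python 3.11.15, pandas 2.3.3, numpy 2.4.6 and matplotlib 3.10.9 were used.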

Additional observations from a re-analysis of the deposited data

Results flagged for a closer look

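A probe set outside the counted ones carries the symbol cutl-8 for 2 gene entries, so it is not a single-gene probe set. It was at 6.27 in control, 7.61 in GO and 6.13 in rGO worms, which is a signal 1.34 above the control array in data that entered no comparison. The single-gene probe set of cutl-8 was at 5.12 on all 3 arrays, under the background limit.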

How the results depend on the processing

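No paired analysis was possible because each condition has 1 array. The spread used to judge a median was the SD between probe sets within genes, as its median over genes (GO minus control 0.20, rGO minus control 0.33, GO minus rGO 0.26). For GO minus control, 13 of 20 genes at least 2-fold higher became 5 of 5 with the floor at the 75th percentile. The count became 6 of 20 at a log2 difference of at least 2 and 8 of 12 with the floor on the 3-array mean. The median of 1.26 became 0.64 with no floor, 2.73 with the higher floor and 1.62 with the brightest probe set. For rGO minus control, 2 genes higher became 0 with the higher floor, where 1 gene entered and the median of 0.24 became 0.77. They became 1 at a difference of at least 2, and 1 without probe sets that share probes, where cut-3 has no value; 0 genes lower became 1 at a difference of at least 0.58. For GO minus rGO, 12 of 19 genes higher became 5 of 5 with the higher floor. The count became 4 of 19 at a difference of at least 2 and 7 of 12 with the floor on the mean. The median of 1.15 became 0.45 with no floor, 2.15 with the higher floor and 1.48 with the brightest probe set. These floors and size rules differ by construction in the genes they admit. Without probe sets that share probes, cut-2, cut-3, cutl-26 and noah-2 have no value. Among the named genes 3 differences crossed the size rule: cutl-18, from 1.03 to 0.99 (GO minus control), and cutl-14, from 1.01 to 0.95 (GO minus rGO), after a further quantile normalisation, and dyf-7, from 0.99 to 1.57 (GO minus rGO), with its brightest probe set. Among differences of at least 1, none of the named genes changed sign. Among smaller ones, cut-1 went from 0.02 to -0.03 in GO minus control and in GO minus rGO after a further quantile normalisation, and fbn-1 from 0.01 to -0.09 in rGO minus control with its brightest probe set. Raising levels under the background limit to it, chosen after seeing the data, left 11, 2 and 10 genes higher among those that entered (GO minus control, rGO minus control and GO minus rGO).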

Other observations

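Of 16 measured genes of the glia that wrap sense organs, where DYF-7 acts in the embryo, 5 reached the floor in control and 8 in GO worms. Against the background limit, 2 of the 16 were at least 2-fold higher in GO than in control worms (12.5%), beside 4.1% of all genes, and 1 was lower, beside 4.71%. By the deposited values grl-2 was also counted, with a lower bound of 1.04-fold. che-14, a Dispatched-related gene of apical secretion, was higher by 1.93 (at least 2.14-fold) and daf-6, a patched-related gene that shapes the glial channel, by 1.24 (at least 2.21-fold). vap-1, a gene of the amphid sheath glia, was lower (-1.31). On the rGO array 0 of the 16 were at least 2-fold from the control array, beside 4.63% of all genes higher and 5.95% lower.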
